A study of Mus musculus with 15 samples.

Results

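The genes described here are 43 mouse genes of the interferon response and of antigen presentation by class I molecules of the major histocompatibility complex (MHC). They were chosen by name from a list and not by a threshold on measured values. Of the 43 genes, 38 have a row in the table of 15569 genes, and 34 of these 38 passed the filter on low values that left 15556 genes for testing. The 4 that did not pass (Mx1, Iigp1, Ifi204 and Ifi207) are given by their levels only. The genes Ifi35, Psmb8, Psmb9, Tap2 and Nlrc5 were not analysed here.

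Interferons are secreted signals that cells release when their sensors meet foreign or misplaced nucleic acid. They act through receptors and the kinases Jak1, Jak2 and Tyk2 on transcription factors that include Stat2 and Irf9, which bind a short element in the promoters of the interferon-induced genes. These genes encode proteins that block viral replication, the sensors themselves, and parts of the pathway that loads peptides on MHC class I molecules. In the brain, microglia, endothelial cells and astrocytes respond to interferon strongly, and neurons use class I molecules during synapse development.

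RNA sequencing measured gene expression in the striatum, a forebrain nucleus that receives cortical and dopaminergic input, of C57Bl/6J pups on postnatal day 14. The study asks whether aerosols inhaled by the pregnant dam alter the pup brain. The dams of 4 control libraries were untreated, those of 3 libraries had received paraquat, a redox-cycling herbicide, those of 4 titanium dioxide (TiO2) nanoparticles, and those of 4 the mixture of paraquat and titanium dioxide. No group carries a transgene. The labels do not state whether libraries of a group are separate animals or litters, so a p-value reflects only how these libraries vary. Part of that variation may be technical. Each group held libraries with high levels of Xist and libraries with Y-linked transcripts, so no group came from a single animal. Values are normalised read counts, that is reads of a gene divided by the size factor of its library. The libraries held 8690925 to 14207513 reads, and 3 reads correspond to 1.98 to 3.25 units. Fold changes are log2 differences of (value + 1), given ± the standard error (SE) of the fit, and understate changes of low genes. A gene was called at a Benjamini-Hochberg adjusted p under 0.05 by limma over all genes tested. In bulk tissue, fewer cells of a type and less RNA per cell cannot be told apart.

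The element that factors with Stat2 and Irf9 bind was looked for in the promoters, since most of these genes are known for it. The letters searched were GAAANNGAAA on both strands, with overlapping matches kept, from 250 bases before to 50 bases after each RefSeq start site (GRCm38.p6). Of 34 listed genes with such a window 16 (47.1%) held the letters, against 1131 of all 32851 windows (3.44%) and 387 of 10930 genes of the table with a window (3.54%). A match is a description and not a measured binding site. The lines below show genes whose levels follow, among them Stat2 and B2m, whose groups overlap. They read 5′ to 3′ on the strand of the gene, and capitals mark the match.
Ifit1, chr19:34640775-34640804: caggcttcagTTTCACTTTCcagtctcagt
Ifit1, chr19:34640794-34640823: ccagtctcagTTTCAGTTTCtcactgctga
Ifit3, chr19:34583363-34583392: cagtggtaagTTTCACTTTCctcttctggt
Ifit3, chr19:34583397-34583426: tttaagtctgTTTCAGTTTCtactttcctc
Rsad2, chr12:26456553-26456582: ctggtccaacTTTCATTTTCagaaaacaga
Bst2, chr8:71537577-71537612: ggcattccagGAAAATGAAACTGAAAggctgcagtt
Trim30a, chr7:104465210-104465239: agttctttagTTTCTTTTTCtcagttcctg
Trim34a, chr7:104244457-104244486: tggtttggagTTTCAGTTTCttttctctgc
Stat2, chr10:128270266-128270295: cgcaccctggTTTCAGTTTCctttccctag
Irf2, chr8:46739495-46739523: tggggaagtGAAAATGAAAttgacttttc
B2m, chr2:122147538-122147567: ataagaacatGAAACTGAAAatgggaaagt
Ifit1 and Ifit3, neighbours on chromosome 19, each held 2 matches, at positions −104 and −85 and at −156 and −122 from the start site. Bst2 held 2 overlapping matches, at −130 and −124, and Trim30a a further match that is not shown. The match of Trim34a lies at position 11 after its start site, and all the others shown lie upstream. In Isg15, 3 matches overlap in a single run, shown with the 250 bases upstream of its start.
Isg15, chr4:156200819-156201068: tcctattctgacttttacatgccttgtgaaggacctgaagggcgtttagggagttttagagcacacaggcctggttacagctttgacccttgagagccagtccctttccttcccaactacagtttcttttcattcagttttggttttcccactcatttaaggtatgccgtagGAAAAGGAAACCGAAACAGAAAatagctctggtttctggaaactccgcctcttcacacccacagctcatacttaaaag
Irf7 and Irf9 held no match in their windows, which says only that these letters are not there.

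Per kilobase of annotated exon, and averaged over the 15 libraries, B2m had the highest level of the 38 genes at 2082 normalised reads. The membrane-bound antiviral gene Ifitm3 followed at 250.2 and the RNA-editing gene Adar at 147, both on the same scale. The class I genes H2-D1, Tapbp and H2-K1 had 35.3, 32.4 and 29.8 per kilobase. The effector genes Ifit1, Ifit3, Usp18 and Rsad2 had 7.48, 6.28, 3.07 and 3.06, and the lowest were Mx1 at 1.48 and Iigp1 at 1.25.

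Control libraries 4 and 2 stood apart from the other 13 libraries for these genes, which bears on every comparison with control. Control 4 had the highest level of all 15 libraries for 19 of the 34 tested genes (55.9%; 8.21% of all genes tested). Control 2 was highest for 3 (8.82%; 11.03% of all genes) and paraquat 3 for 5 (14.7%; 10.7%). Control 4 was at least 2-fold above the median of the exposed libraries for 14 of the 34 genes (41.2%; 0.591% of all genes), and control 2 for 6 (17.6%; 0.463%). No control 1 or control 3 value was 2-fold above that median. The SD of the log2 values within a group had a median over the 34 genes of 0.45 in control, against 0.32 (paraquat), 0.25 (TiO2) and 0.28 (mixture), and over all genes tested of 0.17 in control, against 0.16, 0.17 and 0.15. The spread was widest in control for 21 of 34 genes (61.8%; 28.2% of all genes). Control 2 and 4 are also the control libraries with Y-linked transcripts (summed 929.8 and 1105 normalised reads), while control 1 and 3 had Xist, the RNA of the inactive X chromosome, at 14892 and 10604.

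**Figure D1:**
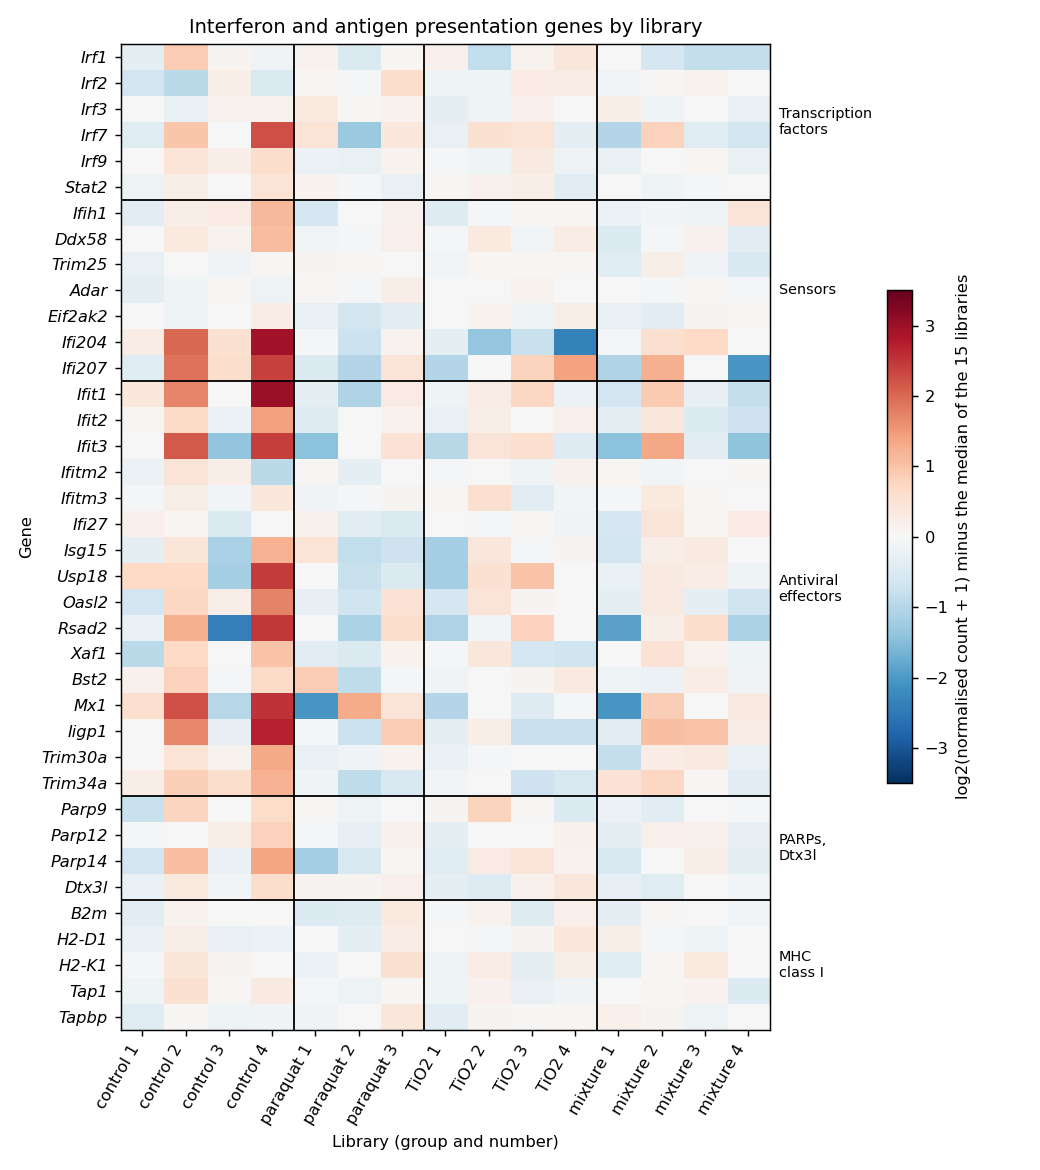
Level of the 38 genes with a row (vertical, grouped by role) in the 15 libraries (horizontal, grouped by exposure), as log2(normalised read count + 1) minus the median of the 15 libraries; red is above and blue below that median. The darkest red cells are effector and sensor genes in control 4 and, less so, control 2, while the MHC class I rows are pale throughout.

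The induced antiviral effectors carried most of this pattern. Their median log2 difference from the mean of the 15 libraries, over 14 tested genes, was 1.31 in control 4 and 0.66 in control 2, and −0.02 and −0.22 in control 1 and 3. Among exposed libraries it ran from −0.61 in paraquat 2 to 0.33 in mixture 2. The 6 exposed libraries with Y-linked transcripts (summed 784 to 994) had effector medians of −0.36 to 0.10. The 4 genes of ADP-ribosylation showed 0.70 and 0.55 in control 4 and 2. The 5 MHC class I genes had −0.06 in control 4 and 0.24 in control 2, and their highest value was 0.42 in paraquat 3.

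**Figure D2:**
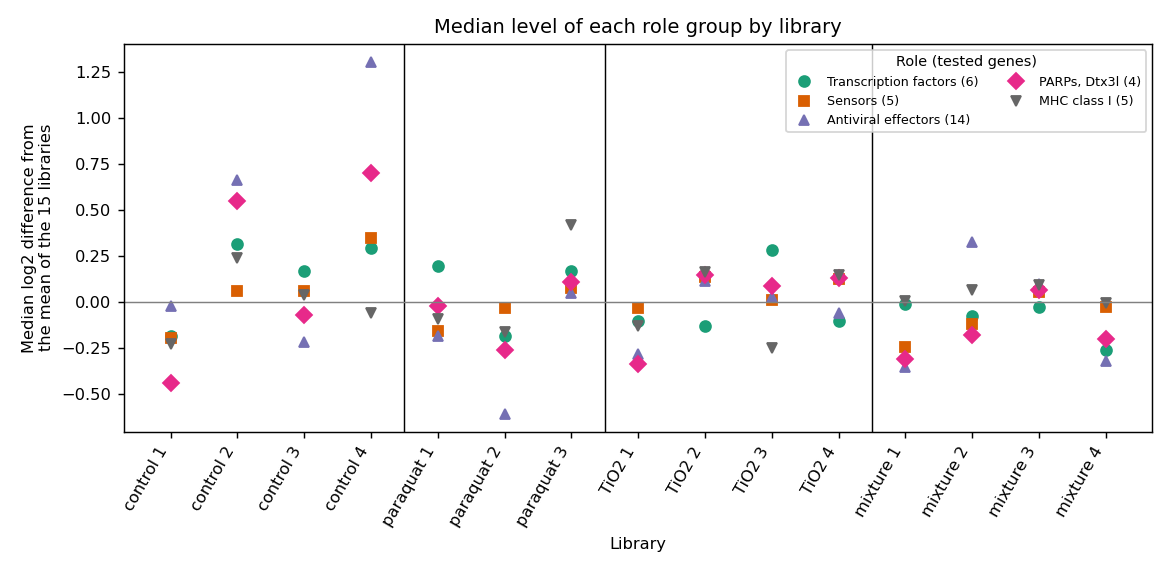
Median log2 difference of each role group (symbols, with the number of tested genes) from the mean of the 15 libraries (vertical), for each library (horizontal). The effectors reach 1.31 in control 4 and 0.66 in control 2, above all exposed libraries, and the MHC class I genes are at −0.06 and 0.24 there.

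Against control, most of the genes had lower estimates after each exposure, but few were called. For paraquat 1 of 34 genes was called higher (Irf2) and 1 lower (Trim34a), against 10.4% of all genes called (6.34% higher and 4.06% lower). For TiO2, Trim34a was called lower, against 6.4% of all genes (4.3% higher and 2.1% lower). For the mixture none was called by limma, against 1.19% of all genes (1.12% higher and 0.0707% lower). The edgeR and DESeq2 tests on the recovered reads called none as well. An unadjusted limma p under 0.05 was found for 7, 5 and 7 of the 34 genes after paraquat, TiO2 and the mixture. Of all genes, 26.6%, 23.3% and 12.2% had one. The share of the 34 was thus below that of all genes for paraquat and TiO2, and above it for the mixture. All exposed libraries against control gave Trim34a and Irf9 lower and Irf2 higher, against 9.66% of all genes (6.52% higher and 3.14% lower). With both directions counted together, the called shares of the 34 genes lie below or near the called share of all genes. The 2 called lower over all exposures are a larger share of the 34 than the 3.14% of all genes. The 3 comparisons with control share the 4 control libraries and are not independent.

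Estimates were negative for 27, 25 and 28 of the 34 genes after paraquat, TiO2 and the mixture (50.97%, 51.8% and 52.3% of all genes). The median log2 fold changes were −0.34, −0.25 and −0.31, where the medians of all genes were −0.01 in each. Without control 4 the medians were −0.18, −0.05 and −0.13, and none of the 34 genes was called in any of the 3 comparisons. With control 2 and 4 both left out the medians were 0.02, 0.11 and −0.01, with 16, 10 and 18 negative estimates and none called, and the sign differed for 13, 17 and 12 of the 34 genes. With the log2 Xist level in the fit the medians were −0.36, −0.13 and −0.26.

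**Figure D3:**
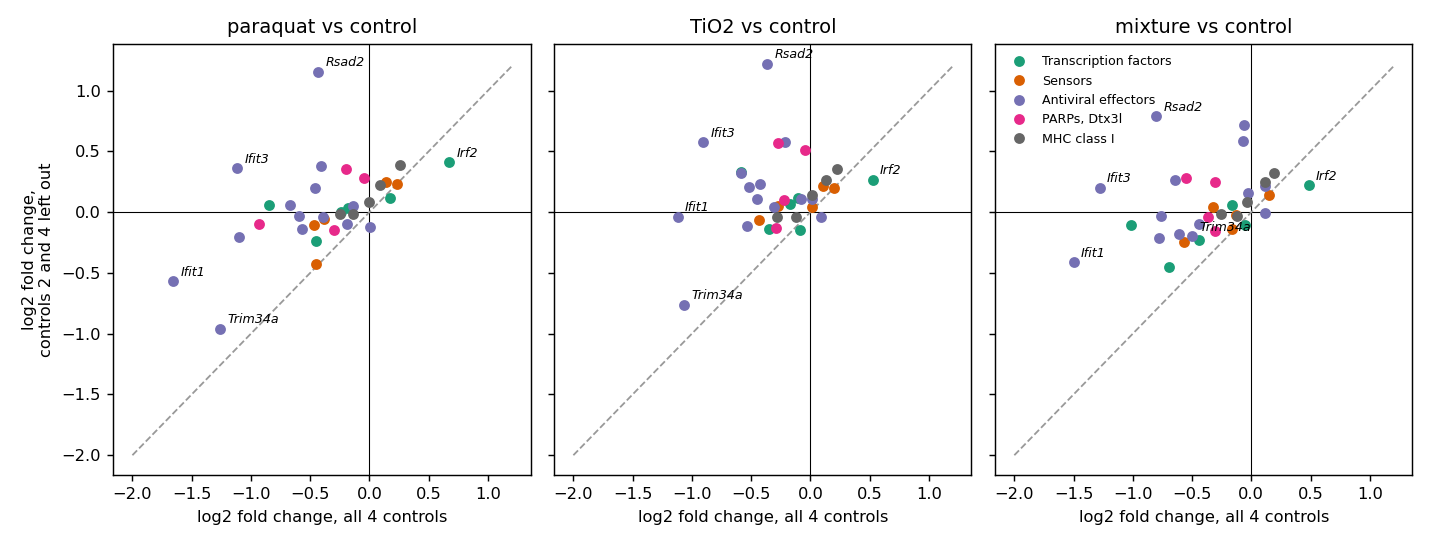
Log2 fold change of the 34 tested genes against control with all 4 control libraries (horizontal) and with control 2 and 4 left out (vertical), for each exposure; the dashed line marks equal values and colours mark roles. Ifit1, Ifit3 and Rsad2 move up from the dashed line toward or past 0, and Trim34a and Irf2 keep their sign.

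Among the transcription factors, Irf2 was higher after paraquat. It encodes a factor that competes with Irf1 for the same DNA element and mostly represses. Irf2 was at 63.2, 51.6, 118 and 69.8 normalised reads in control 1 to 4, 105, 94.4 and 155 in paraquat 1 to 3, 89.2, 90.5, 121 and 120.3 in TiO2 1 to 4, and 94.1, 102, 109 and 99.7 in mixture 1 to 4. Control 3 lies among the exposed libraries and the other 3 controls lie below all of them. Irf2 rose after paraquat by 0.67 ± 0.21 (limma adjusted p = 0.0449) and over all exposures by 0.56 ± 0.16 (adjusted p = 0.0320). The TiO2 and mixture estimates were 0.53 ± 0.20 (adjusted p = 0.107) and 0.48 ± 0.20 (adjusted p = 0.290). The paraquat call was lost without any single library of control 1, 2 or 4, paraquat 1 or 3, TiO2 2 or the mixture (adjusted p = 0.0518 to 0.212; 0.00246 to 0.284 over all alternatives), and the call over all exposures without control 1, 2 or 4, TiO2 3 or mixture 3 (up to 0.129). The paraquat call was also lost with Xist in the fit (0.0534) or with only the groups compared (0.129), and the call over all exposures by edgeR (0.0528). For TiO2, Irf2 was called without control 3 (adjusted p = 0.00832; 0.00642 to 0.517 over all alternatives). The annotation of Irf2 overlaps Gm45479, Gm31172 and Gm45481 on the other strand, over 1723, 433 and 877 bases. Reads of these genes may not be separated from its own.

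Irf9, the DNA-binding partner of Stat2, differed in the other direction. Its levels were 101, 141, 120.2 and 156 in control, 87.3, 84.2 and 111 in paraquat, 96.5, 91.5, 127 and 89.5 in TiO2, and 84.2, 103, 106 and 85.3 in the mixture. The lowest control lies within the range of every exposure. Irf9 fell over all exposures by 0.42 ± 0.12 on the log2 scale (adjusted p = 0.0312), with estimates of −0.45 ± 0.16, −0.35 ± 0.15 and −0.44 ± 0.15 for paraquat, TiO2 and the mixture (adjusted p = 0.0648, 0.143 and 0.166). The call over all exposures was lost without control 2, control 4 or paraquat 1 (adjusted p = 0.0511 to 0.158; 0.0155 to 0.477 over all alternatives). The paraquat difference was called without control 1 (adjusted p = 0.0405), without TiO2 3 (0.0439), with Xist in the fit (0.0404) or with quantile normalization (0.0483; 0.0404 to 0.443 over all alternatives). Irf9 shares 123 bases with Rnf31 on the same strand.

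Irf7, the factor that amplifies interferon production, had a wide spread in control. It was at 15.5, 42.3, 21.3 and 105 in control, 29.8, 8.12 and 27.7 in paraquat, 17.6, 31.5, 30.1 and 16.9 in TiO2, and 9.90, 38.0, 15.6 and 13.4 in the mixture. Only control 4 and 2 exceed the highest exposed library, and control 1 and 3 lie inside the exposed range. The log2 differences were −0.85 ± 0.63, −0.58 ± 0.58 and −1.02 ± 0.58 (adjusted p = 0.423, 0.592 and 0.534). With control 2 and 4 left out they were 0.06, 0.33 and −0.11.

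Stat2 varied less, and its levels were 82.9, 108, 93.6 and 132 in control, 103, 90.3 and 79.0 in paraquat, 96.5, 106, 110.4 and 73.6 in TiO2, and 95.1, 84.6, 92.6 and 94.6 in the mixture. The groups overlap, and the estimates were −0.18 ± 0.16, −0.10 ± 0.15 and −0.16 ± 0.15. Irf3, which sensors activate to start interferon production, was at 68.4, 57.8, 74.5 and 74.7 in control, 87.3, 71.0 and 74.4 in paraquat, 54.0, 59.98 and 77.3 in TiO2 1 to 3, 68.6 in TiO2 4, and 79.2, 61.8, 67.6 and 57.6 in the mixture. It was among the 3 genes of smallest spread over the libraries, with Adar and Trim25. Irf1, an activator of class I genes, had means of 13.9 ± 6.04 (SD, n = 4) in control and 11.2 ± 2.66 (n = 3), 12.1 ± 4.22 (n = 4) and 7.97 ± 2.69 (n = 4) in paraquat, TiO2 and the mixture, and was not called.

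No sensor of nucleic acid was called. Eif2ak2 encodes PKR, a kinase that halts translation when it binds double-stranded RNA. It was at 81.8, 73.3, 80.9 and 96.3 in control, 67.5, 51.8 and 62.6 in paraquat, 82.0, 87.4, 73.3 and 93.5 in TiO2, and 67.3, 60.8, 86.4 and 83.3 in the mixture. All paraquat libraries lie below all control and all TiO2 libraries. The paraquat difference was −0.45 ± 0.15 (adjusted p = 0.0608), and it was called without control 2 (adjusted p = 0.0447) or with quantile normalization (0.0456; 0.0447 to 0.217 over all alternatives). TiO2 and the mixture gave 0.02 ± 0.14 and −0.16 ± 0.14.

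Adar, which edits adenosine in double-stranded RNA and so restrains the sensor encoded by Ifih1, had the narrowest spread. Its levels were 945, 1088, 1241 and 1063 in control, 1246, 1161 and 1421 in paraquat, 1186, 1226, 1327 and 1223 in TiO2, and 1208, 1159.6, 1245 and 1168 in the mixture. Control 3 lies within the exposed range, and the other controls lie below all exposed libraries. The estimates were 0.24 ± 0.09, 0.20 ± 0.08 and 0.15 ± 0.08 (adjusted p = 0.0846, 0.137 and 0.496). Its annotation overlaps Chrnb2 on the other strand over 7252 bases. Strand use is not given in the sources used here, so reads of the overlapping genes may not be separated.

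Ddx58 and Ifih1 encode RIG-I and MDA5, the cytosolic sensors of viral RNA. Ddx58 was at 62.2, 78.4, 68.1 and 134 in control, 57.6, 60.9 and 69.8 in paraquat, 60.2, 79.3, 58.2 and 74.6 in TiO2, and 44.6, 60.7, 68.7 and 48.3 in the mixture. Control 4 stands above the other 14 libraries, which overlap. The mixture difference was −0.57 ± 0.19 (adjusted p = 0.184), with −0.38 ± 0.21 and −0.27 ± 0.19 for paraquat and TiO2. Ifih1 had means of 33.1 ± 15.5 in control and 22.4 ± 5.81, 22.7 ± 3.49 and 24.8 ± 6.12 in the exposures, with 55.0 in control 4. Trim25, a ubiquitin ligase that assists RIG-I, was at 61.1, 73.3, 67.0 and 75.7 in control, 79.4, 76.1 and 73.7 in paraquat, 68.5, 77.3, 76.3 and 76.6 in TiO2, and 54.5, 84.6, 67.6 and 50.4 in the mixture, with overlapping groups.

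The antiviral effectors had the largest estimates. Ifit1, whose protein binds viral RNA that lacks a host-type cap, was at 15.5, 40.2, 11.7 and 102 in control, 8.93, 5.07 and 14.5 in paraquat, 10.4, 14.2, 20.1 and 9.95 in TiO2, and 6.93, 22.8, 9.36 and 6.17 in the mixture. Control 4 and 2 exceed all exposed libraries, and control 1 and 3 fall among them. The log2 differences were −1.65 ± 0.60, −1.12 ± 0.55 and −1.50 ± 0.55 (adjusted p = 0.0873, 0.238 and 0.253). For paraquat Ifit1 was called without control 3 (adjusted p = 0.0273) or with Xist in the fit (0.0401; 0.0273 to 0.506 over all alternatives). With control 2 and 4 left out the 3 differences were −0.57, −0.04 and −0.41.

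Ifit3, its partner in the same complex, was at 7.25, 35.1, 2.13 and 42.3 in control, 1.98, 7.10 and 10.5 in paraquat, 3.11, 10.2, 11.04 and 4.97 in TiO2, and 1.98, 19.5, 5.20 and 2.06 in the mixture. Ifit2 was at 41.4, 64.0, 34.0 and 108 in control, 28.8, 39.6 and 43.5 in paraquat, 33.2, 46.8, 39.1 and 44.8 in TiO2, and 31.7, 51.0, 28.1 and 23.7 in the mixture. In both genes control 4 and 2 are the highest of all libraries, and mixture 2 is the highest exposed library. The estimates for Ifit3 were −1.12 ± 0.88, −0.90 ± 0.82 and −1.28 ± 0.82, and with control 2 and 4 left out they were positive at 0.36, 0.58 and 0.20. For Ifit2 the mixture gave −0.78 ± 0.28 (adjusted p = 0.226). Reads of Ifit3 may be shared with its near copy Ifit3b, so its level is uncertain.

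**Figure D4:**
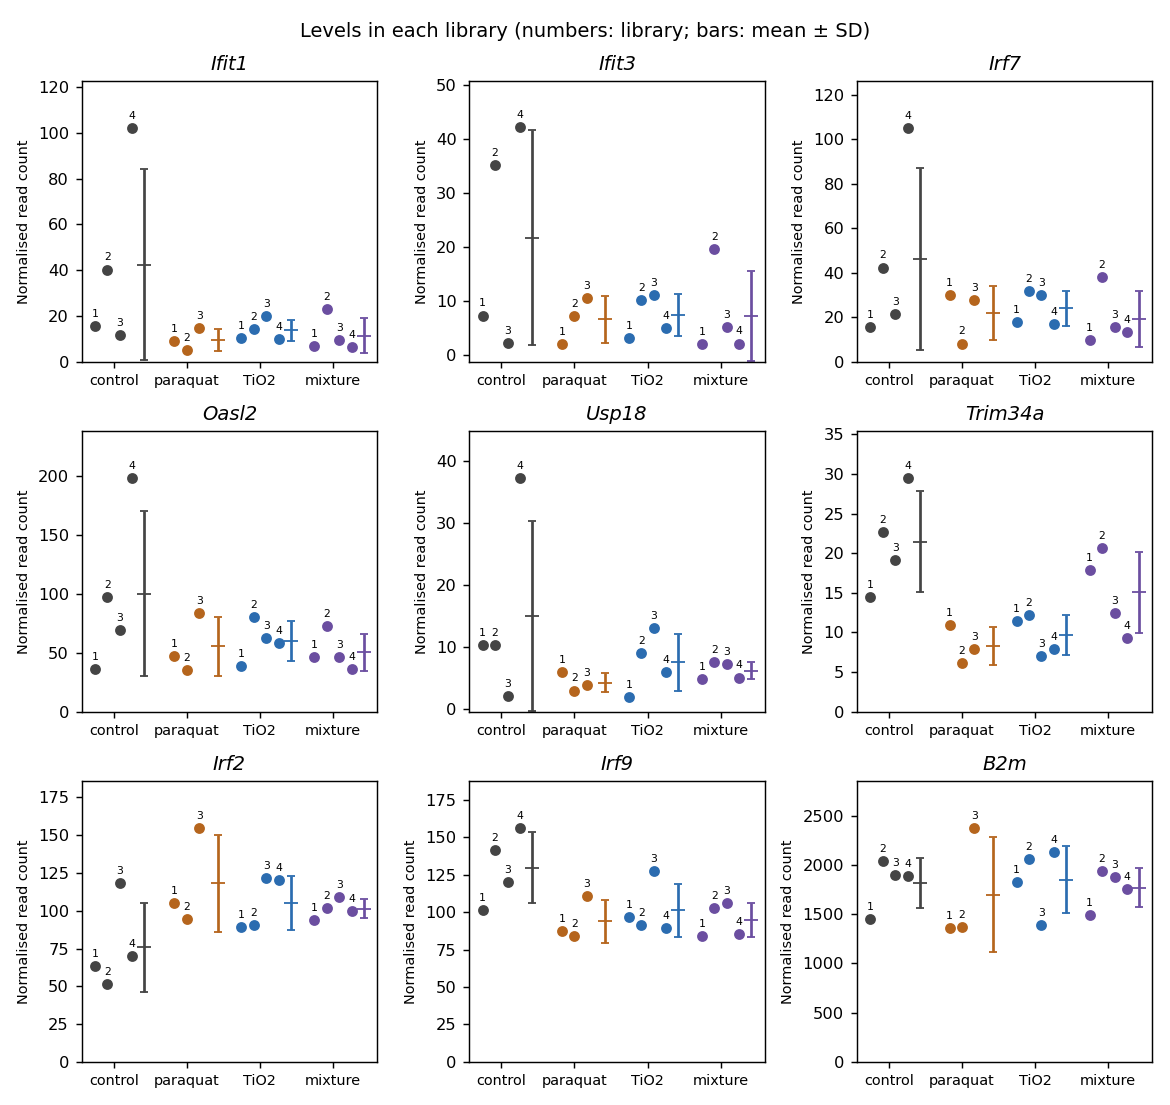
Normalised read counts of 9 genes in each library (points, numbered by library), with the mean ± SD of each group beside them; the vertical axis differs between panels. In Ifit1, Ifit3, Irf7, Oasl2 and Usp18 control 4 is the highest point, in Trim34a all paraquat and TiO2 points lie below all control points, and B2m groups overlap.

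Isg15 encodes a ubiquitin-like protein that is attached to newly made proteins, and Usp18 the enzyme that removes it and also blocks the interferon receptor. Isg15 was at 6.22, 11.4, 3.19 and 20.6 in control, 11.9, 4.06 and 4.61 in paraquat, 3.11, 11.2, 8.03 and 8.95 in TiO2, and 4.95, 9.76, 10.4 and 8.23 in the mixture. Usp18 was at 10.4, 10.3, 2.13 and 37.3 in control, 5.95, 3.04 and 3.95 in paraquat, 2.08, 9.15, 13.1 and 5.97 in TiO2, and 4.95, 7.59, 7.28 and 5.14 in the mixture. In each gene control 4 is the highest library and control 3 is near the lowest. The Isg15 differences were −0.41 ± 0.49, −0.21 ± 0.45 and −0.07 ± 0.45, and those of Usp18 −1.10 ± 0.59, −0.58 ± 0.55 and −0.64 ± 0.55, none called. Without control 4 the TiO2 difference of Usp18 was 0.01. Without control 3 the paraquat difference of Usp18 was −1.72 and was called (adjusted p = 0.0412; 0.0412 to 0.879 over all alternatives). Usp18 overlaps Gm44148 over 15715 bases on the other strand.

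Rsad2 encodes viperin, an enzyme that makes a chain-terminating nucleotide. Its levels were 8.29, 24.8, 1.06 and 59.96 in control, 9.92, 4.06 and 15.8 in paraquat, 4.15, 9.15, 18.1 and 9.95 in TiO2, and 1.98, 11.9, 15.6 and 4.11 in the mixture. Control holds both the highest value and, in library 3, the lowest, and the estimates (−0.43 ± 0.98, −0.37 ± 0.91 and −0.80 ± 0.91) have the widest errors of the 34 genes. With control 2 and 4 left out they were 1.16, 1.22 and 0.79. Oasl2, an oligoadenylate synthetase-like gene, had 199 in control 4 and 36.3, 97.0 and 69.1 in control 1 to 3, against 35.5 to 83.6 over the exposed libraries. Its estimates were −0.67 ± 0.49, −0.52 ± 0.45 and −0.76 ± 0.45.

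Trim34a, of a cluster of TRIM genes on chromosome 7, was the effector that was called. It was at 14.5, 22.7, 19.2 and 29.5 in control, 10.9, 6.09 and 7.90 in paraquat, 11.4, 12.2, 7.02 and 7.96 in TiO2, and 17.8, 20.6, 12.5 and 9.25 in the mixture. All paraquat and TiO2 libraries lie below all controls, and the mixture overlaps control. Trim34a fell by 1.26 ± 0.32 after paraquat (limma adjusted p = 0.0166), by 1.07 ± 0.30 after TiO2 (adjusted p = 0.0327) and by 0.94 ± 0.25 over all exposures (adjusted p = 0.0177), all on the log2 scale. The mixture gave −0.50 ± 0.30 (adjusted p = 0.539). DESeq2 on the recovered reads called none of the 34 genes lower after paraquat or TiO2. It gave Trim34a no adjusted p in either comparison, so it did not test these calls. The paraquat call was lost without control 4, paraquat 2 or paraquat 3 (adjusted p = 0.0525 to 0.0570; 0.0111 to 0.146 over all alternatives), the TiO2 call without control 2, 3 or 4 or TiO2 3 or 4 (0.0518 to 0.122; 0.0245 to 0.252) and with the GC correction (0.0575), and the call over all exposures without control 4 (0.101; 0.00963 to 0.285).

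With control 2 and 4 both left out, the Trim34a differences were −0.96 for paraquat and −0.76 for TiO2, and neither was called (adjusted p = 0.146 and 0.252). At 5.39 normalised reads per kilobase of exon the gene is among the lower ones. Reads may be shared with other TRIM genes of the cluster or with Gm47248, which overlaps 710 of its bases on the other strand, so its level is uncertain. Its neighbour Trim30a had 133 in control 4, 51.8, 73.3 and 56.4 in control 1 to 3, and 28.7 to 65.6 over the exposed libraries. The Trim30a estimates were −0.57 ± 0.27, −0.54 ± 0.25 and −0.61 ± 0.25 (adjusted p = 0.193, 0.205 and 0.314).

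None of the other effectors was called. Ifitm3, which hinders entry of virus through membranes, was at 156, 188, 150.0 and 208 in control, 149, 154 and 173 in paraquat, 166, 237, 124 and 151 in TiO2, and 153, 205, 168 and 161 in the mixture. The groups overlap, at −0.14 ± 0.16, −0.08 ± 0.15 and −0.03 ± 0.15. Ifitm2 had a control mean of 34.4 ± 13.5 and exposed means of 32.7 ± 4.59, 34.4 ± 3.24 and 35.1 ± 1.80, and it was lowest, not highest, in control 4 (17.7). Ifitm2 and Ifitm3 are near copies, and reads may be split between them. Ifi27 had a control mean of 27.7 ± 5.20 and exposed means of 24.3 ± 6.53, 27.6 ± 1.35 and 30.8 ± 8.75. Xaf1, a promoter of cell death, had 34.4 ± 17.9 in control and 22.4 ± 5.78, 23.6 ± 9.15 and 29.4 ± 6.15 in the exposures, with estimates of −0.46 ± 0.35, −0.42 ± 0.33 and −0.07 ± 0.33. Bst2 encodes tetherin, which holds budding virus on the cell, and had 14.1 ± 4.27 in control and 11.6 ± 7.54, 10.9 ± 1.54 and 9.83 ± 1.78 in the exposures.

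The 4 genes under the filter showed the same 2 control libraries as highest. Mx1, a dynamin-like antiviral GTPase, was at 5.18, 18.6, 1.06 and 22.6 in control and at most 9.13 in an exposed library. Iigp1, a GTPase that acts on the vacuoles of intracellular parasites, was at 4.14, 15.5, 3.19 and 32.4 in control and at most 9.76 when exposed. The DNA-binding genes Ifi204 and Ifi207 had 38.3 and 20.6 in control 4, 19.6 and 14.5 in control 2, and at most 7.28 and 9.94 when exposed. Many of these exposed values are near or under the worth of 3 reads, and reads of Ifi204 and Ifi207 may be shared with other genes of their cluster on chromosome 1.

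The genes of ADP-ribosylation had lower estimates in all 3 comparisons and none was called. Parp12 was at 57.0, 58.8, 69.1 and 103 in control, 57.6, 47.7 and 65.8 in paraquat, 46.7, 59.0, 59.2 and 65.6 in TiO2, and 47.5, 67.3, 65.6 and 48.3 in the mixture. Control 4 stands above and the others overlap, and the estimates were −0.30 ± 0.20, −0.29 ± 0.18 and −0.31 ± 0.18. Parp14, which modifies Stat proteins, had means of 37.3 ± 23.8 in control and 17.1 ± 7.58, 26.5 ± 6.62 and 21.6 ± 5.48 in the exposures, with 50.6 and 63.9 in control 2 and 4. Its paraquat estimate was −0.93 ± 0.41 (adjusted p = 0.147). Parp9 and its ubiquitin ligase partner Dtx3l, which overlap by 682 bases on opposite strands, had control means of 22.5 ± 10.1 and 40.9 ± 11.6. Their exposed means were 17.8 ± 1.41, 21.1 ± 8.24 and 16.5 ± 2.01 for Parp9, and 38.5 ± 1.47, 34.8 ± 9.92 and 30.8 ± 4.18 for Dtx3l.

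Antigen presentation genes had median log2 fold changes of −0.01, 0.02 and −0.04 over 5 tested genes, and none was called. B2m, the light chain of all class I molecules, was at 1456, 2044, 1895 and 1885 in control, 1359, 1365 and 2375 in paraquat, 1827, 2063, 1386 and 2133 in TiO2, and 1491, 1939.6, 1879 and 1758 in the mixture. The groups overlap, and paraquat holds both the lowest and the highest library. The differences were −0.14 (95% interval −0.56 to 0.28), 0.02 (−0.37 to 0.41) and −0.04 (−0.43 to 0.35), so changes larger than those bounds are outside the intervals of the fit. B2m, unlike most of the effectors, was not raised in control 4 (1885, where the median of the exposed libraries was 1827). Its annotation overlaps Patl2 over 5398 bases on the other strand.

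The class I heavy chain H2-D1 was at 76.7, 106, 75.5 and 78.6 in control, 90.3, 71.0 and 109 in paraquat, 90.3, 88.5, 97.3 and 116 in TiO2, and 105, 86.8, 81.2 and 90.5 in the mixture. H2-K1, the other heavy chain of the strain, was at 80.8, 112, 89.4 and 82.6 in control, 72.4, 82.2 and 122 in paraquat, 74.7, 99.6, 66.2 and 95.5 in TiO2, and 62.4, 85.7, 106 and 83.3 in the mixture. The groups overlap in both genes. The H2-D1 estimates were 0.09 (−0.24 to 0.42), 0.22 (−0.08 to 0.52) and 0.12 (−0.19 to 0.42), and those of H2-K1 −0.01 (−0.40 to 0.39), −0.12 (−0.49 to 0.24) and −0.12 (−0.48 to 0.24). Heavy chain genes are near copies, so each level is uncertain. Tap1, a subunit of the transporter that brings peptides to class I molecules, had means of 25.4 ± 5.48 in control and 20.8 ± 1.55, 20.5 ± 2.72 and 20.98 ± 3.81 in the exposures. Tapbp encodes tapasin, which holds class I molecules to that transporter, and had 106 ± 13.9 in control and 128 ± 24.8, 117 ± 16.5 and 121 ± 13.04 in the exposures. Tapbp overlaps Zbtb22 over 3422 bases on the same strand.

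Between exposures none of the 34 genes was called by limma, edgeR or DESeq2. Of all genes tested 0.00643%, 0% and 0% were called by limma for the mixture against paraquat, the mixture against TiO2, and paraquat against TiO2. At an unadjusted p under 0.05 there were 1, 0 and 1 of the 34 genes, and 14.4%, 11.4% and 6.41% of all genes. The median differences of the 34 genes were −0.02, −0.06 and −0.08. The smallest p for the mixture against paraquat were those of Trim34a (0.76, adjusted p = 0.287) and Eif2ak2 (0.29 ± 0.15, adjusted p = 0.404), and against TiO2 those of Trim34a (0.56, adjusted p = 0.475) and Trim25 (−0.24 ± 0.15, adjusted p = 0.525). For paraquat against TiO2 they were Eif2ak2 (−0.47 ± 0.15, adjusted p = 0.621) and Irf3 (0.26 ± 0.16, adjusted p = 0.849).

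Non-additivity was measured on the log2 scale as the mixture difference from control less the sum of the paraquat and TiO2 differences. Trim34a was the only one of the 34 genes called by limma, at 1.83 ± 0.44 (adjusted p = 0.0107), against 11.8% of all genes (5.41% positive and 6.36% negative). Its mixture difference from control was thus smaller than the sum of the differences after paraquat and TiO2. It kept its call without any single library and lost it with control 2 and 4 both left out (1.52, adjusted p = 0.0543; 0.00826 to 0.0543 over all alternatives). DESeq2 on the recovered reads called none of the 34 genes, but it gave Trim34a no adjusted p and so did not test this call. The median over the 34 genes was 0.26 (all genes 0.00), and −0.09 with control 2 and 4 left out.

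Beyond the listed genes, 66 of 93 other genes of the pathway had a row and were tested. After paraquat 3 of 66 fell (4.55%; 4.06% of all genes) and none rose. After TiO2 2 fell (3.03%; 2.1% of all genes) and 1 rose (1.52%; 4.3%), and in the mixture none was called by limma. Over all exposures 5 fell (7.58%; 3.14% of all genes) and none rose. Jak2, a receptor-bound kinase, fell by 0.43 ± 0.09 after paraquat (limma adjusted p = 0.00397) and by 0.31 ± 0.08 after TiO2 (adjusted p = 0.0237). Pdia3, a chaperone of the class I loading complex, fell by 0.26 ± 0.09 and by 0.31 ± 0.08 (adjusted p = 0.0490 and 0.0178). The guanosine triphosphatase gene Igtp fell by 0.86 ± 0.23 after paraquat (adjusted p = 0.0201), and Tlr9, a sensor of DNA in endosomes, rose by 0.86 ± 0.24 after TiO2 (adjusted p = 0.0293). Ifi47 was among the 5 that fell over all exposures, by 0.94 ± 0.28 (adjusted p = 0.0373). In the mixture the smallest p were those of Irf8 (−0.56 ± 0.16, adjusted p = 0.0829) and Ifi47 (−1.08 ± 0.34, adjusted p = 0.138). The 31 other induced effectors had medians of −0.26, −0.24 and −0.22, and the 13 receptor, kinase and regulator genes 0.03, 0.03 and −0.02. Control 4 was the highest library for 21 of these 31 effectors (67.7%; 8.21% of all genes). Their median log2 difference from the mean of the 15 libraries was 0.77 in control 4 and 0.31 in control 2. In control 1 and 3 it was −0.15 and −0.09. Fold changes of the 66 genes with control 2 and 4 left out are not given here.

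The genes outside the list whose levels followed the listed genes most closely were found by Pearson correlation with the mean standardized log2 level of the 38 genes over the 15 libraries. Among the 10 highest were Rtp4 (0.94), Ccl12 (0.91), Irgm1 (0.89), Cxcl10 (0.89), Rpp21 (0.87), Rnf213 (0.84), Gm49070 (0.82), Sp100 (0.81) and Fbxo46 (0.81). The chemokine gene Cxcl10 was at 13.5, 43.3, 6.38 and 88.5 in control 1 to 4 and 3.11 to 18.4 in the exposed libraries. Rtp4, an interferon-induced chaperone of receptors, was at 72.5, 133, 90.4 and 243 in control and 48.7 to 112 when exposed. Without control 2 and 4, the libraries farthest from the median, the correlations of the 10 genes over 13 libraries were 0.53 to 0.83. Among the 38 genes, 26 correlated above 0.5 with the mean of the others over 15 libraries and 16 did over those 13, and Irf2, Irf3, Adar and Ifitm2 correlated negatively over the 15.

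The summed marker levels of microglia and endothelial cells overlapped between control and each exposure. The 12 microglia markers all had a row and summed to 6169 to 7506 normalised reads in control, 6129.9 to 7269 in paraquat, 6743 to 7128 in TiO2 and 5784 to 6629 in the mixture. The 10 endothelial markers summed to 3424 to 3844 in control, 2916 to 3762 in paraquat, 3241 to 3685 in TiO2 and 3179 to 3628 in the mixture. Paraquat 1 and 2, TiO2 1 to 3 and mixture 1 and 4 lay below all controls. Paraquat 3, TiO2 4 and mixture 2 and 3 lay within the control range. The 8 astrocyte markers summed to 11089.8 to 12062 in control, less than in any TiO2 library (12180.2 to 12830), and overlapped control in paraquat (11547 to 13849.9) and the mixture (10508 to 12588). The 8 oligodendrocyte markers summed to more in every paraquat library than in any control, at 86099.9 to 99441 against 39111 to 58209.6, and overlapped control in TiO2 (53682 to 84537) and the mixture (46441 to 80559.5). Of 12 lymphocyte and granulocyte markers only Cd4 had a row, at 648 to 773 in control and 601 to 925 when exposed. Of 5 red blood cell markers 3 had a row, with sums of 1331 to 2289 in control and 1304 to 2038 when exposed. The 12 markers of striatal projection neurons were all present and summed to 91330.0 to 100088 in control, more than in any paraquat library (78851 to 87725), and overlapped control in TiO2 (85063 to 93947) and the mixture (78163 to 91560.3). Of 8 cortical markers 7 had a row, and they summed to 717 to 1474 in control, less than in any paraquat (1546 to 5233) or mixture library (2334 to 4177), with overlap in TiO2 (1095 to 2630.3). The part of these differences in cell markers in the results was not tested.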

How the data were processed

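The authors deposited 1 table of normalised signal, that is gene read counts divided by the size factor of their library. The values themselves show this, since all are whole multiples of a step within 0.001. Whole reads were recovered by that step, and the recovery is claimed for 11 of 15 libraries. Per the submitters' processing notes, Bowtie2 (2.3.2.2), the mm10 genome and DESeq2 (2.1.8.3) were used. The sources used here do not give the counter, annotation or strand use.

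All 15 libraries were fitted together by limma 3.58.1 (R 4.3.3, trend and robust options) on log2(value + 1), with 1 mean per group. A filter on low values (filterByExpr, edgeR 4.0.16) dropped 13 genes. Coordinates and lengths come from GENCODE M21 (GRCm38), which held all 15569 symbols. Alternatives were other pseudocounts, filters, scalings and fits (edgeR and DESeq2 1.42.0 on recovered reads), a GC correction, an Xist covariate, a replicate block and leaving out each library. Leaving out control 2 and 4 together was chosen after seeing the data. On simulated data, 88% to 89% of genes changed by 1 on the log2 scale and 98% to 99% of those changed by 2 were recovered, and 2.62% (paraquat), 4.08% (TiO2) and 8.37% (mixture) of calls were false, for each exposure against control over 15556 genes. The simulated counts were drawn independently, with no libraries that deviate together. These rates were not measured for the 34 genes, whose median SD in control was 0.45 against 0.17 over all genes.

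The genes, role lists and naming rule were chosen with earlier results of these data known. Library values are given for called genes, the 4 smallest p for each exposure, the 3 widest and 3 narrowest spreads, the highest gene of each role, and B2m, H2-D1, H2-K1, Stat2, Isg15, Usp18 and Irf7. Library values of Oasl2, Trim30a, Rtp4, Cxcl10 and the 4 genes under the filter were added after they were seen. Same-numbered paraquat and mixture libraries deviated together in all 3 pairs (correlations 0.114 to 0.271), the only groups where this was so. Paraquat 2 correlated more with mixture 4 (0.337) than with mixture 2 (0.134). Paraquat 1 and 3 correlated best with their own number among the mixture libraries. In each of the 3 pairs the libraries also matched in having Xist or Y-linked transcripts. Values of 1 other pathway gene are not reported here.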

Additional observations from a re-analysis of the deposited data

Results flagged for a closer look

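Within 114 groups of 4 libraries, 5 had a library far from the other 3, where chance alone gives about 1 in 20. Mixture 4 had Ifih1 at 33.9 normalised reads, where the other mixture libraries had 20.8 to 22.8. TiO2 1 had Trim25 at 68.5 (others 76.3 to 77.3) and Tapbp at 92.3 (others 122 to 128). Mixture 3 had Bst2 at 12.5 (others 8.68 to 9.25). Control 2 had H2-D1 at 106 (others 75.5 to 78.6). The paraquat group has 3 libraries and was not checked in this way. The effect of paraquat on Trim34a differed with TiO2 present, by 1.83 on the log2 scale in the test of non-additivity, and the values are given with that comparison.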

How the results depend on the processing

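The number of the 34 genes called depended on settings. For paraquat (2 called) it was 1 with a mean of at least 50, which keeps 16 of the 34 genes and drops Trim34a, or with only the groups compared, 4 with quantile normalization, 0 with control 2 and 4 left out, and 0 to 5 when 1 library was left out. For TiO2 (1 called) it was 2 of 38 without the filter, with Ifi204 added, 0 with a mean of at least 50, with the GC correction or with control 2 and 4 left out, and 0 to 1 when 1 library was left out. DESeq2 also gave 0, having given Trim34a no adjusted p. For paraquat DESeq2 gave 2, both higher, and again gave Trim34a no adjusted p. For the mixture (none called) it was 1 with the block and GC correction, and 0 to 1 when 1 library was left out. For all exposures (3 called) it was 5 with DESeq2 or with Xist in the fit, 0 with control 2 and 4 left out, and 0 to 7 when 1 library was left out. For non-additivity (1 called) it was again 2 of 38 without the filter, with Ifi204, 0 with a mean of at least 50, with DESeq2 or with control 2 and 4 left out, and 1 to 2 when 1 library was left out. There too DESeq2 gave Trim34a no adjusted p.

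With control 2 and 4 left out, the medians over the 34 genes moved to 0.0204 (paraquat), 0.109 (TiO2), −0.0132 (mixture), 0.0714 (all exposures) and −0.0944 (non-additivity). The sign reversed for 13 (paraquat), 17 (TiO2) and 12 (mixture) of the 34 genes, with Rsad2 at 1.16, 1.22 and 0.79. Among them were Ifit3 (0.36), Irf7 (0.0616) and Oasl2 (0.0565) after paraquat, Ifit3 (0.58), Irf7 (0.33), Oasl2 (0.21) and Usp18 (0.32) after TiO2, and Ifit3 (0.20) and Usp18 (0.26) in the mixture. When 1 library was left out, Usp18 after TiO2 ranged from −1.20 without control 3 to 0.0102 without control 4. These settings leave fewer control libraries, and otherwise the cause was not tested.

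The replicate block gave 2 calls for TiO2, with Irf2 added, 2 for non-additivity, with Irf2 added, and 4 over all exposures, with Adar added. The block with the GC correction gave 1 for TiO2 (Irf2 in place of Trim34a), 2 for non-additivity and 1 for the mixture (Irf2). Other counts of called genes were as in the fit without the block. Same-numbered libraries had correlations over 0.1 in 8 of 21 pairs (−0.187 to 0.271), and 4 of 15 libraries correlated best with their own number. Fits of only the groups compared were not run for all exposures and non-additivity, which use all groups already. Depth limits Mx1, Iigp1, Ifi204 and Ifi207, which lie near the worth of 3 reads in many exposed libraries.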
